A study of Mus musculus with 8 samples.

Results

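PL1 and PL12 are cell lines taken from tumours of mice engineered to develop lung squamous cell carcinoma (LUSC), and they were compared gene by gene in bulk RNA-seq. Every gene of the deposited table entered, 55487 in all, and 4 of the 8 libraries of the series were set against each other, 2 of PL12 and 2 of PL1. The remaining 4 libraries came from the lines PLA and PLA4, which stand for ACKR3 loss in the design of the series, and they served here to estimate the spread of each gene and as levels beside Ackr3 and the chromosome medians. No agent, time point, age or sex was labelled, the alleles of the mouse models were not spelled out, and each line is a single line, so a difference between PL12 and PL1 belongs to these lines and not to a treatment. Whether the paired libraries of PL1 or PL12 are independent cultures is not labelled, so a p-value here speaks of library-to-library spread, possibly technical.

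Squamous epithelia are stratified sheets whose basal layer is held by the transcription factor p63 (gene Trp63), often together with SOX2, and is filled with the keratin pair KRT5 and KRT14. Simple epithelia, such as those of many glands, carry KRT8 with KRT18 and KRT19 in place of that pair, together with apical mucins and tight junctions. LUSC is a tumour of squamous identity, and p63 and KRT5 are used to recognise it in pathology.

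Values below are CPM, counts scaled to a common library total, and each pair of values is given with replicate 1 first. A gene was called where edgeR's quasi-likelihood test gave a Benjamini-Hochberg adjusted p under 0.05. Fold values are ratios of the mean CPM of PL12 and PL1, and log2 fold changes are PL12 minus PL1 with their standard errors (SE). Beside that test, PL12 was set against PL1 replicate 1 alone and against PL1 replicate 2 alone, because those libraries differed from each other. Depth was 88993934 and 107042196 counts in PL1 and 48857960 and 107564405 counts in PL12, so that 3 counts, the level below which a 0 cannot be told from a low value, stood at 0.0264 to 0.0614 CPM. Exact permutation of 2 libraries against 2 cannot give a two-sided p under 0.333, so every p here comes from a model fitted across all genes.

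The line labels were checked first against Ackr3, the atypical chemokine receptor of the series (ENSMUSG00000044337.5, chromosome 1, 90203980 to 90216751 on GRCm38). Ackr3 stood at 86.3 and 33.2 CPM in PL1 and at 25.3 and 26.3 CPM in PL12, while the 4 libraries of PLA and PLA4 held 0.0254 to 0.387 CPM. Both lines therefore expressed the gene, and PL1 replicate 1 lay 2.60-fold above PL1 replicate 2. The difference between PL12 and PL1 was not called (log2 fold change -1.21 ± 0.46, adjusted p = 0.104, edgeR), although PL12 was lower against PL1 replicate 1 alone (-1.73, adjusted p = 0.0162, edgeR) and not against replicate 2 alone (-0.37, adjusted p = 0.484, edgeR). Stk11, a tumour suppressor kinase gene listed as a second check, read 18.97 and 23.8 CPM in PL1 and 15.4 and 20.9 CPM in PL12 and was not called (adjusted p = 0.439, edgeR), and its groups overlapped.

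Among the other 13 tested genes of the ACKR3 chemokine and adrenomedullin axis, the kinase gene Grk2 rose 1.63-fold. The arrestin gene Arrb1 fell 3.13-fold, though not against PL1 replicate 1 alone. Adm, which encodes the peptide adrenomedullin that ACKR3 can bind, stood at 13.3 and 80.8 CPM in PL1 and 4.38 and 4.13 CPM in PL12, and fell in the test (adjusted p = 0.0285, edgeR). Cxcl12, the chemokine ligand of ACKR3, read 0.253 and 23.6 CPM in PL1 and 0.184 and 0.119 CPM in PL12, so its level in PL1 rested on replicate 2, and it was not called (adjusted p = 0.0590, edgeR). The median log2 fold change of this list was 0.42 against PL1 replicate 1 alone and -0.85 against replicate 2 alone.

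Of 18648 genes tested, 4419 (23.7%) were called between PL12 and PL1. Higher in PL12 were 2090 genes (11.2%) and lower were 2329 genes (12.5%), and 2756 of the called genes were over 2-fold apart. In every called gene both PL12 libraries lay on 1 side of both PL1 libraries, as they did in 66.7% of all tested genes. Set against each PL1 library singly, 2462 genes (13.2%) were called both times with 1 sign, 1100 of them (5.90%) higher and 1362 (7.30%) lower in PL12. Of the 4419 called genes, 2436 were in this narrower set and 1983 were not. The median log2 fold change over all tested genes was -0.03, or 0.025 against PL1 replicate 1 alone and -0.016 against replicate 2 alone. The median absolute change of the called genes was 1.33. These counts rested on PL12: without its replicate 1 or its replicate 2 they came to 763 or 804 genes, and the narrower set to 262 or 239.

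**Figure D1:**
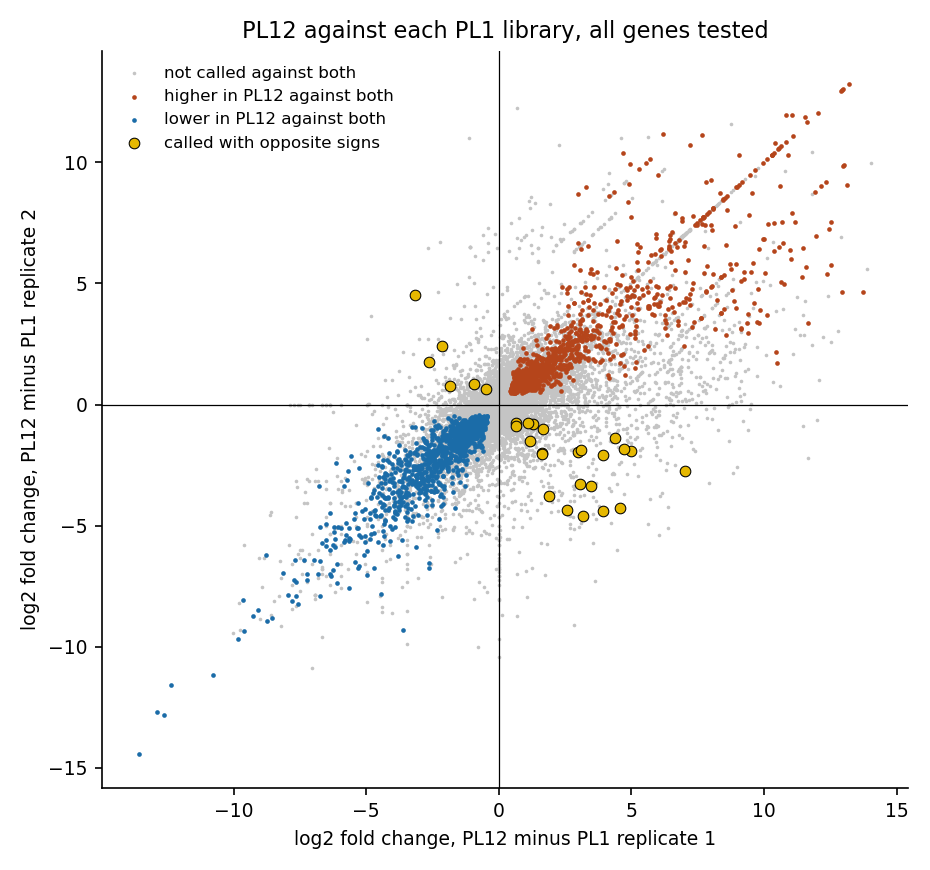
Log2 fold change of every tested gene, PL12 minus PL1 replicate 1 (x axis) and PL12 minus PL1 replicate 2 (y axis), 1 point a gene. The 1100 genes called higher and the 1362 called lower against both PL1 libraries lie in the upper right and lower left, and the 28 large points are genes called against each library with opposite signs.

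The largest rises were genes all but silent in PL1 (all 24 genes of the 12 largest rises and falls averaged 10 CPM or more and were called in both ways). Wnt7a, a secreted Wnt ligand (chromosome 6, 91363981 to 91411363), gave 0.0115 and 0.00882 CPM in PL1, which is 2 counts in all, and 36.6 and 38.1 CPM in PL12. The ratio was 3771 with a 95% counting interval from 1040 to 31100, which covers counting error only (log2 fold change 11.71 ± 0.34, adjusted p = 0.000354, edgeR). Msln, a membrane-anchored glycoprotein known from mesothelium and from several carcinomas (chromosome 17, 25748613 to 25754378), rose from 0.219 and 0.115 CPM to 454 and 470 CPM (log2 fold change 11.46 ± 0.80, adjusted p = 0.000895, edgeR). Cldn6, a claudin of tight junctions that is best known from the embryo, rose from 0.138 and 0.0617 CPM to 242 and 257 CPM. All 3 were near 0 in both PL1 libraries and above 36 CPM in each PL12 library, with no overlap. The matrix glycoprotein gene Efemp1 rose from 0.0345 and 0.0529 CPM to 71.2 and 65.6 CPM. Gcnt3, a glycosyltransferase that branches mucin-type sugars, rose 545-fold to 107 and 98.4 CPM. The remaining 7 rose 324-fold to 1632-fold by mean CPM: the mannose receptor gene Mrc1, the BCL2 family member Bcl2l15, the ectoenzyme gene Bst1, the PDZ protein gene Gipc2, the GTPase regulators Arhgap8 and Adap1, and Prl2a1, a placental member of the prolactin family. Gipc2 had 4 counts in PL1, so that its ratio of 1669 has a counting interval from 652 to 6130.

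Among the 12 largest falls the PL1 libraries often stood apart. Thbs2, a thrombospondin of the matrix, fell from 36.6 and 41.6 CPM in PL1 to 0.102 and 0.0735 CPM in PL12 (445-fold, log2 fold change -8.83 ± 1.14, adjusted p = 0.00471, edgeR). Gkn1, a gastrokine made by gastric surface mucus cells, fell from 33.5 and 27.3 CPM to 0.389 and 0.257 CPM. Cfap45, a protein of motile cilia, fell from 31.6 and 47.9 CPM to 1.25 and 1.19 CPM. For these 3 genes the PL1 libraries were close to each other and far above PL12. Cemip, a hyaluronan-binding protein, read 0.886 and 46.7 CPM in PL1 and 0.0409 and 0.0919 CPM in PL12, and its fold therefore ran from 13.3 against PL1 replicate 1 to 704 against replicate 2. Fmo2, a flavin-containing monooxygenase, read 5.57 and 96.5 CPM against 0.982 and 0.836 CPM, which is 6.12-fold against replicate 1 and 106-fold against replicate 2. The keratin Krt23 was likewise higher in replicate 2 (113 and 461 CPM in PL1, 4.56 and 4.14 CPM in PL12). Smoc2, a matrix glycoprotein, and Prickle2, a planar polarity protein, leaned the other way, with 53.9 and 3.99 CPM for Smoc2 and 36.2 and 5.81 CPM for Prickle2 in PL1, against less than 1 CPM in each PL12 library. The other 4 of the 12, the sulfotransferase gene Hs3st3b1, the lactate and pyruvate transporter gene Slc16a7, Sgsm1 and the chemokine gene Ccl5, fell 37.6-fold to 59.8-fold.

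**Figure D2:**
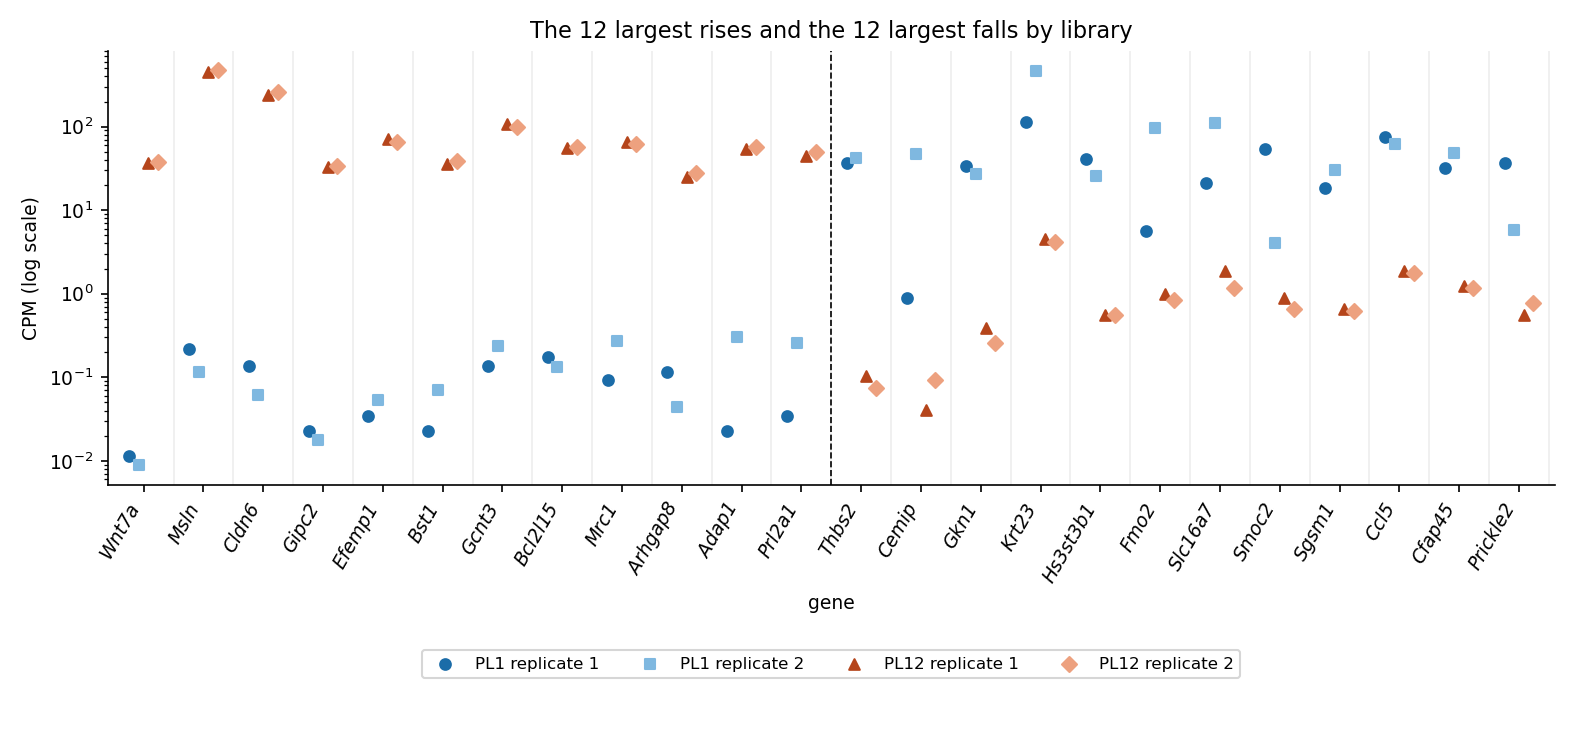
CPM on a log axis for the 12 largest rises (left of the dashed line) and the 12 largest falls (right of it), with 1 mark for each of the 4 libraries. The PL12 marks of each gene lie close together, while among the falls the PL1 marks of Cemip, Fmo2, Smoc2 and Prickle2 lie more than 6-fold apart.

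The squamous basal programme was lower in PL12. Of 40 tested members of this list, 27 fell (67.5%, beside 12.5% of all genes), 1 rose and 12 were not called. Their median log2 fold change was -1.90 beside -0.03 over all genes. The PL1 libraries themselves differed here. Of the 40, 12 were over 2-fold lower in PL1 replicate 2 than in replicate 1 and 2 were over 2-fold higher, beside 368 and 806 of all 18648 genes. Against each PL1 library singly 23 fell and 1 rose. These members were listed with earlier results on these libraries known. Trp63 stood at 381 and 373 CPM in PL1 and at 29.2 and 26.3 CPM in PL12, a 13.6-fold fall in which the PL1 libraries were alike (log2 fold change -3.77 ± 0.17, adjusted p = 0.000388, edgeR). Sox2 fell from 69.3 and 70.1 CPM to 10.05 and 12.6 CPM. Krt5 fell from 5251 and 2645 CPM to 284 and 315 CPM, which is 17.5-fold against PL1 replicate 1 and 8.83-fold against replicate 2. Its partner Krt14 fell from 7813 and 3148 CPM to 759 and 773 CPM. The desmosomal cadherin Dsg3 fell 10.9-fold and the stress keratin Krt17 fell 9.90-fold. Egfr, the receptor of epidermal growth factor, was the 1 member that rose (148 and 120 CPM in PL1, 480 and 433 CPM in PL12). Trp63 and Krt5 were still well above 0 in PL12, with 8.80 and 8.37 deposited TPM (abundance per transcript length) for Trp63 and 197 and 222 TPM for Krt5. In bulk samples, fewer cells of a type and less RNA per cell cannot be told apart.

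Of the keratins of simple epithelia Krt18 and Krt19 rose, Krt7, Krt8 and Krt20 were not called, and Krt23 fell. Krt19 read 0.357 and 0.917 CPM in PL1 and 1138 and 1385 CPM in PL12 (log2 fold change 10.93 ± 2.21, adjusted p = 0.0177, edgeR). Krt18 rose from 38.9 and 44.9 CPM to 2266 and 2572 CPM (log2 fold change 5.85 ± 1.36, adjusted p = 0.0269, edgeR). Neither passed against a single PL1 library (adjusted p = 0.0661 and 0.0805 for Krt19 and 0.0985 and 0.109 for Krt18, edgeR), although the PL1 and PL12 libraries did not overlap in either. Krt8, the partner of KRT18, read 296 and 225 CPM in PL1 and 2938 and 3172 CPM in PL12, and was not called with the spread of all 8 libraries (adjusted p = 0.0952, edgeR). With the spread of only the 4 libraries of PL12 and PL1 its adjusted p was 0.00568 (edgeR). That fit also lost 20 of the 169 called genes that the naming rule took. Krt7 was 3.92-fold apart (572 and 519 CPM, then 1997 and 2275 CPM; adjusted p = 0.289, and 0.0101 with only the 4 libraries, edgeR). In deposited TPM, which compares genes, Krt18 (2591 and 2905 TPM) stood above Krt14 (711 and 725 TPM) in PL12, and Krt14 (7414 and 3190 TPM) stood above Krt18 (44.4 and 54.7 TPM) in PL1. Muc1, an apical mucin, read 0.449 and 27.7 CPM in PL1 and 446 and 391 CPM in PL12; it was not called (adjusted p = 0.0652, edgeR) but passed against each PL1 library singly. Of 23 tested simple epithelial and secretory genes, 5 rose and 2 fell (21.7% and 8.7%, beside 11.2% and 12.5% of all genes). The 2 were Gkn1 and Krt23, and the list median was 1.83. That median was 0.87 against PL1 replicate 2 alone and 5.21 against replicate 1 alone.

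The 250 bases before the RefSeq start of transcription are shown for 2 of these keratins, Krt5, which fell, and Krt18, which rose, because Snai2, which encodes the repressor SLUG that binds E-boxes of the letters CACCTG, was itself among the genes that fell. They are from RefSeq on GRCm38.p6, read 5′ to 3′ on the strand of the gene, with CACCTG on either strand in capitals: Krt5 at chr15:101712906-101713155 (minus strand) and Krt18 at chr15:102027966-102028215 (plus strand).
Krt5: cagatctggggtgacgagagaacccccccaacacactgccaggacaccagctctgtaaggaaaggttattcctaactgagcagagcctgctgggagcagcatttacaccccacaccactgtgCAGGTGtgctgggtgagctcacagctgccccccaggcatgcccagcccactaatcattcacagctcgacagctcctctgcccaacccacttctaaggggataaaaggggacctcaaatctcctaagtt
Krt18: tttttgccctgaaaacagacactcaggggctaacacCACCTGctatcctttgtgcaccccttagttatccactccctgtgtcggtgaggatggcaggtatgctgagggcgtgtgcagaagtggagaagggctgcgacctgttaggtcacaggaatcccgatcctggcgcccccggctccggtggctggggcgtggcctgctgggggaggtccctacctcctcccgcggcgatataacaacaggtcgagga
Krt5 held 1 such match, 128 bases before the start, and Krt18 held 1, 214 bases before it. The gene model of Krt18 in GENCODE starts at 102028180, inside the window shown, and the window of Krt14 is left out because it lies inside that gene's model. Over such 250-base windows the motif was present in 17.1% of all 27025 promoters of the table, in 15.7% of the 12274 of tested genes, in 19.1% of the 1529 of genes higher in PL12 and in 14.7% of the 1753 of genes lower in PL12. The AP-1 motif TGANTCA was present in 6.87% of promoters of genes higher and 5.36% of genes lower in PL12, beside 5.26% of tested genes and 6.87% of all promoters. The TEAD motif GGAATG was present in 12% of each, beside 11% of tested genes and 12.6% of all promoters. The windows follow 1 RefSeq start a gene, which need not be the start in use in these cells. A match describes letters in the window and is neither a binding site nor a cause.

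Genes of the late squamous layers were called higher more often, and lower less often, than all genes. Of 35 tested genes of the cornified envelope and squamous differentiation, 8 rose and 1 fell (22.9% and 2.86%, beside 11.2% and 12.5% of all genes). Krt80 rose from 3.60 and 5.08 CPM in PL1 to 99.9 and 104 CPM in PL12 (log2 fold change 4.55 ± 0.20, adjusted p = 0.000388, edgeR). Tgm1, the transglutaminase that crosslinks the cornified envelope, rose from 0.518 and 0.423 CPM to 16.6 and 16.4 CPM. The envelope precursor gene Sprr1a rose 6.06-fold and the plakin gene Ppl rose 4.92-fold. In these 4 genes the PL1 libraries lay close together and far below PL12. Ivl, which encodes involucrin, was the member that fell (70.8 and 30 CPM in PL1, 6.73 and 5.72 CPM in PL12). The median log2 fold change of the list was 2.09 against PL1 replicate 1 alone and 0.52 against replicate 2 alone.

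**Figure D3:**
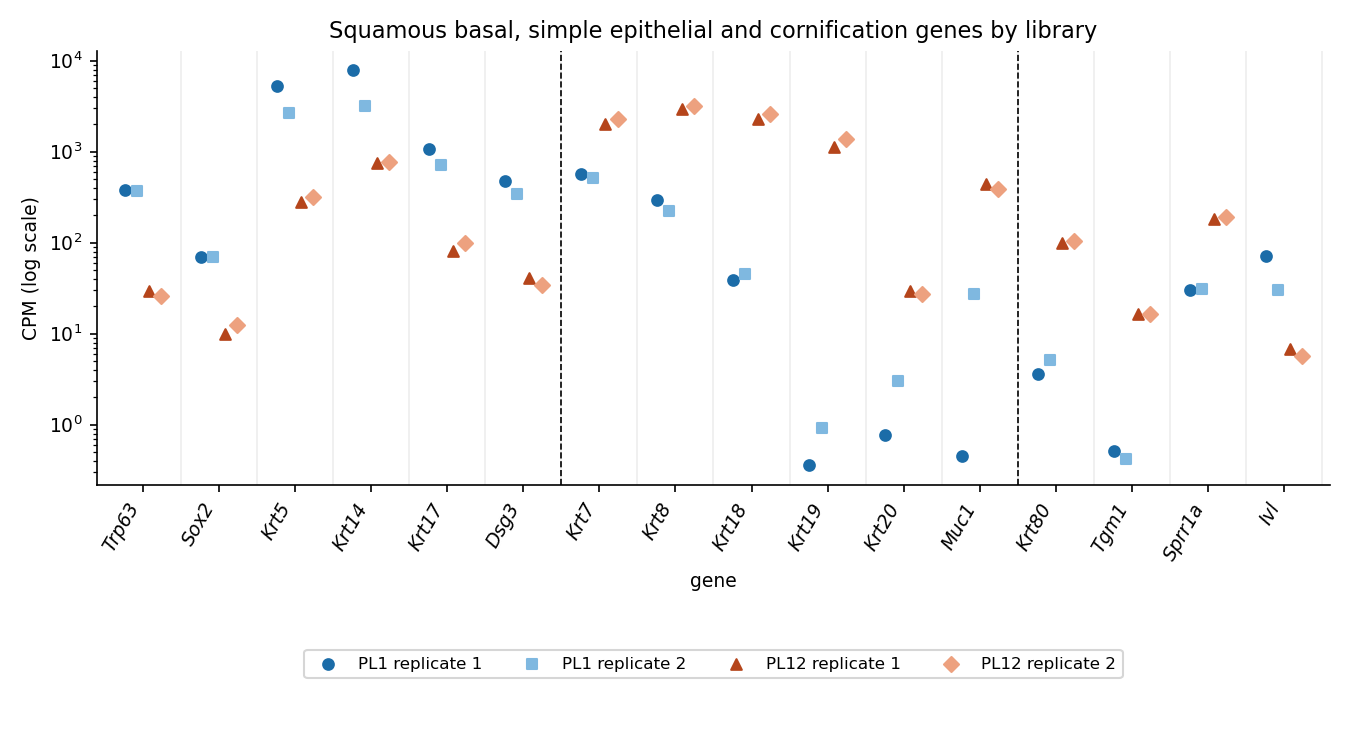
CPM on a log axis in the 4 libraries for squamous basal genes (left), simple epithelial genes (middle) and genes of late squamous layers (right), with dashed lines between them. Trp63, Sox2, Krt5, Krt14, Krt17 and Dsg3 lie lower in both PL12 libraries, while Krt7, Krt8, Krt18, Krt19, Krt20 and Muc1 lie higher, of which only Krt18 and Krt19 were called; Krt20 read 0.771 and 3.05 CPM in PL1 and 29.5 and 27.2 CPM in PL12.

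Several lineage factors of lung and other organs differed. Nkx2-1, the master factor of lung epithelium that LUSC usually lacks, had 8 counts in PL1 (0 and 0.0705 CPM) and 8.86 and 8.69 CPM in PL12, and was called (adjusted p = 0.0411, edgeR) but passed neither DESeq2 (adjusted p = 0.0842) nor a test against a single PL1 library. Foxa2, a factor of foregut endoderm, had 0 counts in PL1 and 223 counts in PL12 (1.41 and 1.42 CPM), and was called (adjusted p = 0.00726, edgeR). Abca3, the lipid transporter of alveolar cells, rose from 13.2 and 12.8 CPM to 99.6 and 98.3 CPM, and Foxj1, the factor of ciliated cells, rose 16.2-fold, though against neither PL1 library singly (adjusted p = 0.139 and 0.163, edgeR). The surfactant gene Sftpc and the club cell gene Scgb1a1 were listed at 0 TPM in all 4 libraries. In this lung list of 21 tested genes 4 rose and 3 fell (19% and 14.3%, beside 11.2% and 12.5% of all genes). Among 54 tested developmental transcription factors 7 rose and 13 fell (13% and 24.1%, beside 11.2% and 12.5% of all genes). Cdx2, the factor of intestinal epithelium, rose from 0.748 and 0.564 CPM to 14.7 and 16.4 CPM. Pitx1, a limb and oral factor, fell from 309 and 310 CPM to 58.5 and 69.3 CPM. Foxc1 fell from 47.7 and 46.0 CPM to 11.3 and 10.6 CPM, and Tbx2 fell 7.87-fold. These 3 falls were of like size against both PL1 libraries. Of 18 tested Hox genes 3 rose and 2 fell (16.7% and 11.1%, beside 11.2% and 12.5% of all genes), at a list median of -1.07. Hoxb7 rose 19.5-fold from under 1 CPM, though it did not pass against PL1 replicate 2 alone, and Hoxa3 fell 7.11-fold. The Hox median was -0.96 against PL1 replicate 1 alone and -1.20 against replicate 2 alone.

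Of 45 tested junction genes and epithelial regulators 16 rose (35.6%, beside 11.2% of all genes) and 5 fell. Cgn, the cytoplasmic tight junction protein cingulin, rose from 52.9 and 64.1 CPM to 171 and 177 CPM, and the polarity gene Pard6b rose from 6.87 and 14.1 CPM to 133 and 132 CPM. Epcam rose 2.31-fold, but not against either PL1 library singly. Grhl3, a factor of epidermal barrier formation, fell from 14.8 and 26.7 CPM to 1.62 and 1.17 CPM. Cdh1, the adhesion molecule E-cadherin, read 789 and 637 CPM in PL1 and 724 and 631 CPM in PL12, so its groups overlapped (log2 fold change -0.07 ± 0.16, adjusted p = 0.776, edgeR). The median log2 fold change of the list was 0.47 against PL1 replicate 2 alone and 0.89 against replicate 1 alone. Cldn3 was 66.6-fold apart by mean CPM and was not called (0.794 and 9.95 CPM, then 318 and 398 CPM; adjusted p = 0.121, edgeR).

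Of 43 tested mesenchymal markers and regulators 10 fell and 3 rose (23.3% and 6.98%, beside 12.5% and 11.2% of all genes). Snai2 fell from 84.9 and 97.2 CPM in PL1 to 8.10 and 7.04 CPM in PL12 (log2 fold change -3.59 ± 0.17, adjusted p = 0.000458, edgeR). Acta2, the actin of smooth muscle and myoepithelium, fell from 194 and 70.9 CPM to 10.6 and 9.22 CPM. Postn, a matrix protein, fell from 5.24 and 12.3 CPM to 0.0614 and 0.0827 CPM. Vim, the intermediate filament of mesenchyme, read 0.437 and 40.2 CPM in PL1 and 10.1 and 11.03 CPM in PL12, so PL12 lay between the PL1 libraries and no direction can be given. Of 29 tested collagen chains 10 fell and 2 rose (34.5% and 6.9%, beside 12.5% and 11.2% of all genes), Col2a1 falling 6.39-fold.

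Markers of fibroblasts and mural cells differed between the PL1 libraries and stand beside these counts. Summed over the 16 listed genes they came to 0.900 and 85.4 TPM in PL1 and to 0.610 and 0.580 TPM in PL12, and 4 of the 10 tested were over 2-fold higher in PL1 replicate 2 than in replicate 1. Col1a1 gave most of it, with 0.575 and 254 CPM in PL1 and 0.675 and 0.570 CPM in PL12. Dcn read 0.0230 and 10.7 CPM in PL1 and Pdgfrb 0 and 4.29 CPM, while Lum, Dpt and Tcf21 were at or near 0 TPM in all 4 libraries. Pdgfra was the 1 member of the 10 that fell (2.47 and 4.70 CPM in PL1, 0.471 and 0.267 CPM in PL12). Col1a1, Dcn and Pdgfrb were not called (adjusted p = 0.0786, 0.137 and 0.138, edgeR). Without PL1 replicate 2 the median log2 fold change was 0.18 for mesenchymal genes and -0.22 for collagens. Without replicate 1 these medians were -1.50 and -1.87. Their part in the falls was not tested.

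Of 26 tested integrin and hemidesmosome genes 3 rose and 4 fell (11.5% and 15.4%, beside 11.2% and 12.5% of all genes), so the list as a whole lay near the background. Its median log2 fold change was -0.31 against PL1 replicate 1 alone and 0.085 against replicate 2 alone. Itga2, which pairs with beta 1 in the collagen receptor, rose from 40.7 and 51.4 CPM to 1275 and 1058 CPM (25.3-fold, log2 fold change 4.66 ± 0.61, adjusted p = 0.00484, edgeR). Itgb8, whose product with the alpha V chain can activate latent TGF-beta, rose from 0.0345 and 0.0441 CPM to 8.98 and 6.48 CPM. Itgb5 fell 2.68-fold.

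Signalling lists held calls in both directions. In the EGF family 5 of 16 tested rose and 2 fell, all 5 rises also against each PL1 library singly. Hbegf, an ERBB ligand, rose from 7.31 and 8.19 CPM to 133 and 135 CPM (17.3-fold, log2 fold change 4.11 ± 0.24, adjusted p = 0.00066, edgeR). Btc, another ligand, rose 7.85-fold, and the receptor gene Erbb3 rose from 9.83 and 20.7 CPM to 63.2 and 56.1 CPM. These 3 and Egfr were 4 of the 5 rises. The rises were 31.2% of the tested members and the falls 12.5%, beside 11.2% and 12.5% of all genes. The ligand gene Nrg1 fell from 58.7 and 87.1 CPM to 42.6 and 36.0 CPM (adjusted p = 0.0315, edgeR), though not against PL1 replicate 1 alone, and Lrig3, a transmembrane protein with leucine-rich repeats, fell 4.89-fold. The EGF family median was 1.12 against PL1 replicate 1 alone and 0.64 against replicate 2 alone.

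In the Wnt list 4 of 33 tested rose and 4 fell (12.1% each way), near the 11.2% and 12.5% of all genes. Wnt7b rose from 47.5 and 58.8 CPM to 313 and 327 CPM beside Wnt7a, while Wnt4 fell from 146 and 140 CPM to 44.7 and 42.8 CPM. Rnf43, which removes Wnt receptors from the surface, fell from 24.1 and 23.5 CPM to 3.32 and 3.08 CPM. In the Notch list 5 of 20 rose and 4 fell (25% and 20%, beside 11.2% and 12.5% of all genes). Nrarp, a feedback inhibitor induced by Notch, rose 14.4-fold, Notch3 rose from 0.150 and 0.529 CPM to 15 CPM in each PL12 library, and Rbpj, the DNA-binding effector, rose 3.69-fold. Hes1, the classic target, fell from 170 and 265 CPM to 45.6 and 43.2 CPM, and the ligand gene Jag1 fell from 745 and 254 CPM to 134 and 122 CPM, which did not pass against PL1 replicate 2 alone. Target genes of the pathway thus lay on both sides. The Wnt median was -0.57 against PL1 replicate 1 alone and -0.38 against replicate 2 alone, and the Notch median was -0.005 and 0.099.

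In the TGF-beta and BMP list 5 of 36 rose and 7 fell (13.9% and 19.4%, beside 11.2% and 12.5% of all genes). Its median was -0.042 against PL1 replicate 1 alone and 0.41 against replicate 2 alone. Fst, which traps activins, rose from 34.9 and 22.7 CPM to 250 and 238 CPM, and Ltbp1, which binds latent TGF-beta, rose 6.47-fold. Tgfb1 itself fell from 186 and 120 CPM to 41.7 and 48.6 CPM, Inhbb, an activin subunit, fell 6.205-fold and Bmp7 fell 14.5-fold. Of the YAP and TEAD targets 7 of 21 rose and 4 fell (33.3% and 19%, beside 11.2% and 12.5% of all genes). Ankrd1 rose from 7.84 and 24.9 CPM to 648 and 679 CPM, F3, the gene of tissue factor, rose 6.32-fold, and Amotl2 rose 3.27-fold. Fjx1 fell 3.08-fold and Tgfb2 fell 2.71-fold. The key target Ccn2 was not called (adjusted p = 0.185, edgeR). Ccn1 rose 1.75-fold, which was 2.17-fold against PL1 replicate 1 and 1.46-fold against replicate 2. The median of this list was 0.39 against PL1 replicate 1 alone and 0.28 against replicate 2 alone. Ankrd1 did not pass against PL1 replicate 2 alone (adjusted p = 0.0768, edgeR). In the FGF list 3 of 17 rose and 4 fell (17.6% and 23.5%, beside 11.2% and 12.5% of all genes). Fgfbp1, an FGF carrier, rose 21.0-fold, though it did not pass against PL1 replicate 2 alone, and the receptor gene Fgfr2 fell 3.23-fold. Among ERK feedback and response genes 5 of 36 rose and 6 fell (13.9% and 16.7%, near the shares of all genes). Their median was 0.38 against PL1 replicate 1 alone and -0.245 against replicate 2 alone. Epha4 rose 4.06-fold and Myc rose 2.07-fold, while Rasa3 fell 2.43-fold and Ier2 fell 3.60-fold. The key genes Dusp6, Spry4, Etv4 and Fosl1 were not called (adjusted p = 0.433, 0.210, 0.0524 and 0.963, edgeR).

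**Figure D4:**
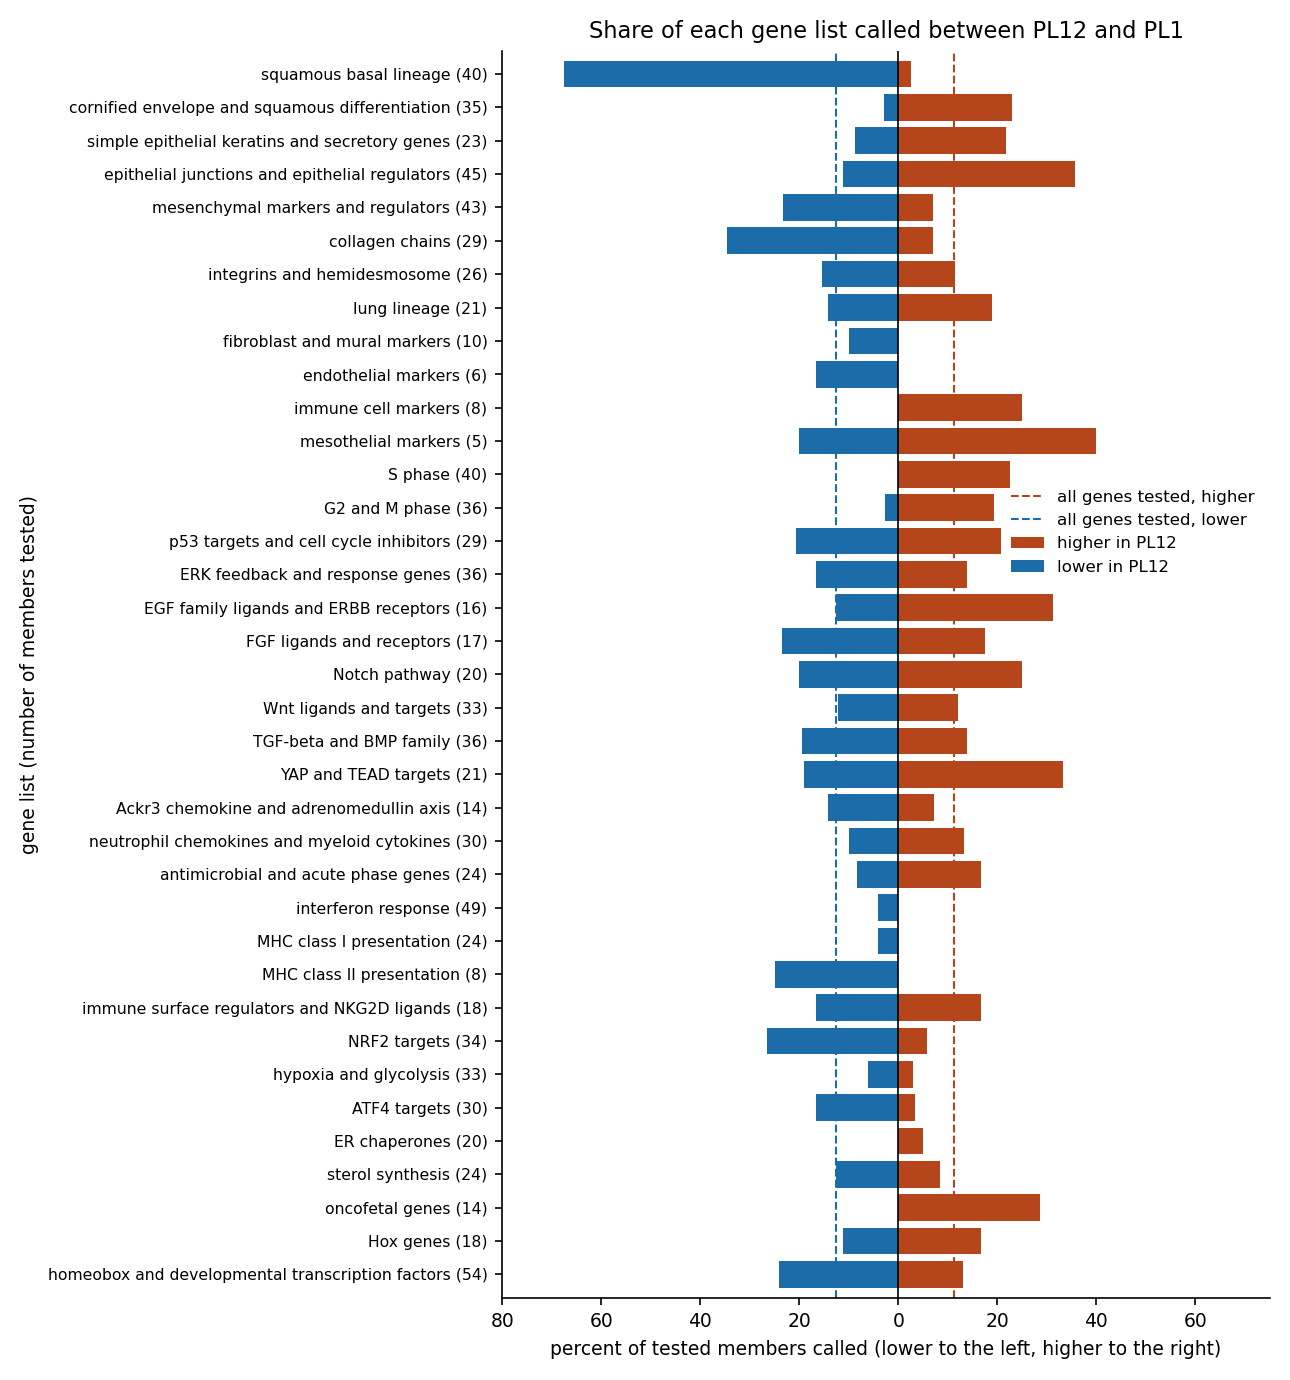
Percent of tested members of each of 37 gene lists called higher in PL12 (to the right) and lower (to the left), with the number tested in brackets and dashed lines at the 11.2% and 12.5% of all genes. The longest bar is that of the 27 of 40 squamous basal genes that fell, and several lists, among them Wnt, lie near the dashed lines on both sides.

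Cxcl5, which recruits neutrophils, rose from 1599 and 2435 CPM to 6680 and 6593 CPM (3.29-fold, log2 fold change 1.72 ± 0.29, adjusted p = 0.0102, edgeR). Cxcl3 rose from 197 and 261 CPM to 1091 and 1120 CPM, though it did not pass against PL1 replicate 2 alone. Il1a, an alarm cytokine, rose 3.58-fold. Tnf fell from 15.1 and 25.3 CPM to 1.74 and 1.40 CPM, and Ccl5, which attracts T cells, fell from 74.4 and 61.8 CPM to 1.86 and 1.76 CPM. In all 4 of 30 tested members rose and 3 fell (13.3% and 10%, near the shares of all genes). Their median log2 fold change was 0.97 against PL1 replicate 1 alone and -0.08 against replicate 2 alone. Csf3, the growth factor of neutrophils, read 1.85 and 37.1 CPM in PL1 and 160 and 190 CPM in PL12 and was not called (adjusted p = 0.139, edgeR).

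The differences of antimicrobial and interferon genes depended on the PL1 library that PL12 was set against. Lcn2, a siderophore-binding protein, read 5.90 and 928 CPM in PL1 and 1295 and 1317 CPM in PL12. Ltf, lactoferrin, read 4.95 and 1030 CPM in PL1 and 325 and 282 CPM in PL12, so PL12 lay between the PL1 libraries. Neither was called (adjusted p = 0.530 and 0.789, edgeR). Of 24 tested antimicrobial and acute phase genes 4 rose and 2 fell (16.7% and 8.33%, beside 11.2% and 12.5% of all genes). Among them were the oxidase gene Duox2 (5.31-fold higher) and the complement gene C3 (2.49-fold higher). The list median was 2.39 against PL1 replicate 1 alone and 0.50 against replicate 2 alone. Of 49 tested interferon response genes 2 fell (4.08%, beside 12.5% of all genes), among them Mx1. In edgeR 0 were called higher, beside 11.2% of all genes (3 at an unadjusted p under 0.05, and 5 with DESeq2). The median of the interferon genes was 1.69 against replicate 1 alone and -0.049 against replicate 2 alone. In this list 32 of the 49 were over 2-fold higher in PL1 replicate 2 than in replicate 1, beside 806 of all 18648 genes.

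Lists of antigen presentation and T cell contact are given beside the 11.2% of all genes called higher and the 12.5% called lower. Of 24 tested MHC class I genes 1 fell (4.17%) and 0 rose. It was H2-T23, a nonclassical heavy chain (73.0 and 75.7 CPM, then 33.4 and 32.1 CPM). H2-T23 shares sequence with its neighbours, so that its reads may be split between copies. Of 8 tested class II genes 2 fell (25%) and 0 rose. H2-Ab1 was at 14.9 and 23.7 CPM in PL1 and 1.99 and 1.93 CPM in PL12. Cd80, a costimulatory ligand of T cells, fell from 74.7 and 87.4 CPM to 5.81 and 5.05 CPM (14.9-fold, log2 fold change -3.90 ± 0.14, adjusted p = 0.000354, edgeR), and both PL12 libraries lay far below both PL1 libraries. Over the list of surface regulators and NKG2D ligands 3 of 18 rose and 3 fell (16.7% each way). Its median log2 fold change was 0.32 against PL1 replicate 1 alone and 0.62 against replicate 2 alone. In the class I list that median was 1.01 against replicate 1 alone and 0.059 against replicate 2 alone. Of the immune cell markers, Ptprc, which all leukocytes carry, was at most 0.01 TPM and Cd3e was at 0 TPM in all 4 libraries. Of the 8 tested, 2 rose (25%) and 0 fell. The summed immune markers were nonetheless 13.3 and 112 TPM in PL1 and 227 and 218 TPM in PL12, most of it Cd14, and Csf1r, the receptor of a macrophage growth factor, rose 12.7-fold. Ly6g, a marker of neutrophils, rose from 0 and 0.0529 CPM to 1.90 and 1.74 CPM (adjusted p = 0.0124, edgeR), and Cd68, a marker of macrophages, read 1.92 and 9.90 CPM in PL1 and 9.58 and 7.11 CPM in PL12 and was not called (adjusted p = 0.710, edgeR). Their part in the differences was not tested. Of 6 tested endothelial markers 1 fell (16.7%) and 0 rose. The 1 was Pecam1, which was under 1 CPM in every library. Of the mesothelial markers, Upk3b and Wt1 were at most 0.04 TPM in all 4 libraries, and Msln, Krt19 and Bnc1 (which fell) were the members called.

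Of 34 tested targets of NRF2, the factor of the oxidant response, 9 fell (26.5%, beside 12.5% of all genes) and 2 rose, and 6 fell against each PL1 library singly. The glutathione transferase Gsta4 fell from 356 and 418 CPM to 68.4 and 70.9 CPM (log2 fold change -2.47 ± 0.14, adjusted p = 0.00066, edgeR). Gsta3 fell 9.07-fold, and both belong to a gene family in which reads may be split where members are alike in sequence. The glutathione peroxidase gene Gpx2 fell from 211 and 138 CPM to 32.8 and 33.6 CPM. The 23 members that were not called included the key targets Nqo1, Gclc and Hmox1 (adjusted p = 0.731, 0.459 and 0.238, edgeR). In each of them PL12 lay between the PL1 libraries. Gclc, for example, read 72.0 and 324 CPM in PL1 and 111 and 106 CPM in PL12. Slc7a11, the cystine transporter, fell from 114 and 248 CPM to 18.6 and 16.5 CPM and also counts among the targets of ATF4, the factor of the amino acid response. Of 30 tested ATF4 targets 5 fell and 1 rose (16.7% and 3.33%, beside 12.5% and 11.2% of all genes). Asns fell 2.40-fold. Phgdh, which opens serine synthesis, rose 2.26-fold, though it did not pass against PL1 replicate 2 alone. The median log2 fold change of these ATF4 targets was -1.14 against PL1 replicate 2 alone and 0.24 against replicate 1 alone. Over all genes it was -0.016 and 0.025. Of 33 tested hypoxia and glycolysis genes 1 rose and 2 fell, of 20 ER chaperones 1 rose, and of 24 sterol genes 2 rose and 3 fell, each at or below the shares of all genes. Against PL1 replicate 1 alone the medians of these 3 lists were, in this order, -0.29, 0.31 and 0.49. Against replicate 2 alone they were -0.44, -0.19 and 0.10.

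Of 40 tested S phase genes 9 rose (22.5%), and of 36 genes of the G2 and M phases 7 rose (19.4%) and 1 fell. Of all genes 11.2% were called higher. The key genes of both lists, Mcm2, Pcna, Rrm2, Mki67, Ccnb1 and Top2a, were not called. Mki67 read 567 and 321 CPM in PL1 and 477 and 397 CPM in PL12 (log2 fold change -0.02 ± 0.37, adjusted p = 0.972, edgeR). Gins1, a subunit of the replicative helicase, rose from 8.89 and 9.04 CPM to 19.3 and 19.4 CPM. Anln, which scaffolds the contractile ring, rose from 103 and 97.7 CPM to 274 and 248 CPM. Against PL1 replicate 1 alone the median was 0.058 for S phase genes and 0.17 for genes of the G2 and M phases. Against replicate 2 alone these medians were 0.47 and 0.855. Ccnd1, the cyclin of the G1 phase, read 300.4 and 258 CPM in PL1 and 1209 and 1272 CPM in PL12, and was just short of the threshold (adjusted p = 0.0569, edgeR; 0.00765 with only the 4 libraries). Of 29 tested p53 targets and cell cycle inhibitors 6 rose and 6 fell (20.7% each way, beside 11.2% and 12.5% of all genes). Perp, a desmosomal p53 target, fell 2.57-fold. Cdkn1c, an imprinted inhibitor of cyclin-dependent kinases, had 5 counts in PL1 and stood at 6.02 and 6.19 CPM in PL12. It also led the oncofetal list, in which 4 of 14 rose (28.6%, beside 11.2% of all genes). The RNA-binding protein gene Igf2bp1 rose 2.81-fold. The chromatin protein gene Hmga1 rose 8.30-fold, though it did not pass against PL1 replicate 2 alone.

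The differences were also uneven along the genome. Among 9429 genes averaging 10 CPM or more the median log2 difference was -0.02, but it was -0.51 over the 570 such genes of chromosome 1 and 0.51 over the 624 of chromosome 5. On chromosome 1, 29.4% of tested genes were called lower and 5.29% higher, beside 12.5% and 11.2% of all genes. On chromosome 5, 26.9% were called higher and 4.07% lower. In windows of 20 Mb all 10 medians of chromosome 1 lay between -0.67 and -0.38, and all 8 of chromosome 5 lay between 0.38 and 0.83. Against PL1 replicate 1 and replicate 2 the chromosome 1 median was -0.50 and -0.48, and that of chromosome 5 was 0.49 and 0.55, while the PL1 libraries differed from each other by -0.06 on both. Chromosome 6 followed at -0.36 among the autosomes, and chromosome Y, with 4 such genes, stood at -3.96. Against the line PLA the PL12 medians were -0.10 for chromosome 1 and -0.05 for chromosome 5, and those of PL1 were 0.38 and -0.66. Against the line PLA4 they were -0.16 and 0.48 for PL12 and 0.34 and -0.05 for PL1, so that on chromosome 5 PL12 lay near PLA and PL1 near PLA4. These comparisons share libraries with each other, so they are given side by side only.

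**Figure D5:**
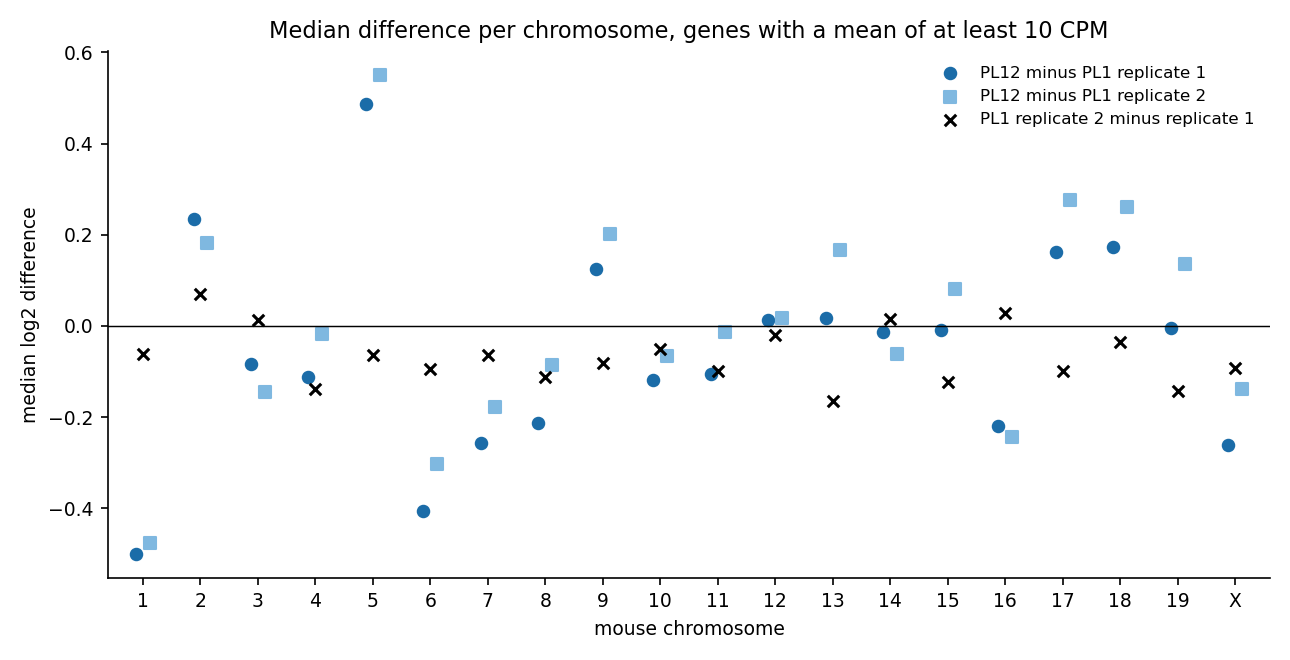
Median log2 difference of genes averaging 10 CPM or more on each mouse chromosome but Y, for PL12 minus each PL1 library and, as crosses, PL1 replicate 2 minus replicate 1. Chromosome 1 (-0.50 and -0.48) and chromosome 5 (0.49 and 0.55) lie farthest from 0 among those drawn in both PL12 comparisons, and the crosses stay near 0.

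The PL1 libraries were much less alike than the PL12 libraries. On log2(CPM + 1), 1174 tested genes (6.30%) were over 2-fold apart between the PL1 libraries, 806 of them higher in replicate 2, against 64 genes (0.343%) between the PL12 libraries. Of the called genes, 256 were over 2-fold apart between the PL1 libraries. With 1 library against 1 there is no test of these differences. In 28 genes PL12 was called against both PL1 libraries but with opposite signs, so that PL12 lay between them. Olfm4, a secreted glycoprotein of gut and inflamed epithelium, read 5.28 and 266 CPM in PL1 and 21.4 and 17.9 CPM in PL12. Pax9, a factor of pharyngeal and oral epithelium, read 20.5 and 129 CPM against 68.3 and 59.8 CPM. Among called genes that averaged 10 CPM or more, the PL1 libraries differed most, on log2(CPM + 1), in Cemip and Fmo2 (given above), in the netrin receptor gene Unc5c (44.4 and 2.65 CPM in PL1, 0.123 and 0.101 CPM in PL12) and in the matrix gene Tgfbi (641 and 53.8 CPM in PL1, 27.5 and 26.3 CPM in PL12). Tgfbi was thus 23.8-fold lower in PL12 against replicate 1 and 2.00-fold lower against replicate 2.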

How the data were processed

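RNA was extracted on columns, reverse transcribed with SMARTer chemistry and tagmented with Nextera XT, per the labels' protocols. Expected counts per gene, estimates that need not be whole, were deposited by the authors per the file headers, beside TPM values for the same genes. The submitters' processing notes name STAR, RSEM, FastQC, DESeq2 and the build GRCm38. Their annotation release was not given in the sources used here. Of the deposited expected counts 14.2% were not whole, and they were rounded before any test.

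Genes were kept by filterByExpr (minimum count 10, minimum total 15), scaled by TMM and tested with edgeR 4.0.16 (limma 3.58.1, R 4.3.3) on all 8 libraries, with a mean for each line, 4 residual degrees of freedom and a common biological coefficient of variation 0.344. Against a single PL1 library 3 remained, the lone library being assumed to vary like the others. The other lines thus weigh on each p. SEs came from the F statistic. TPM keep no depth and were used for levels between genes. Coordinates are from GENCODE on GRCm38 (54435 identifiers matched). Alternatives used DESeq2 1.42.0, other scalings and filters, limma on log2(TPM + 0.5), a 2-fold minimum and each library left out. The test on all 8 libraries was also run on simulated counts with the same spread in every line. That check does not cover lines of unequal spread or the fits against a single PL1 library.

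The text names Ackr3, Stk11, the 12 largest rises and falls among genes called in both ways averaging 10 CPM or more with plain symbols, key genes and up to 4 called members with the smallest p per list, members needed to describe a list, and the 4 called genes in which the PL1 libraries differed most on log2(CPM + 1). A few genes that these rules take are not reported here. The comparison, its members and the lists were chosen with earlier results of these data known. Replicate numbers name libraries and are not known to pair them. Deviations of same-numbered PL1 and PL12 libraries correlated at -0.0581 across genes, and those of the other line pairs at -0.194 to 0.0148. Such correlations cannot exclude a pairing.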

Additional observations from a re-analysis of the deposited data

How the results depend on the processing

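Beside 4419 genes called between PL12 and PL1, other scalings, filters, DESeq2, limma on TPM and a fit to only the 4 libraries gave 3774 to 5800. A 2-fold minimum left 971, and leaving out 1 library gave 763 to 4027, the lowest without PL12 replicate 1. With the replicate number as a block 3177 were called; the numbers are not known to pair the libraries. Of genes called against both PL1 libraries singly (2462), DESeq2 gave 4024, the 4 libraries alone 6367 from a fit with a single residual degree of freedom, the 2-fold minimum 625, and leaving out a PL12 library 239 to 262. Genes over 2-fold apart between the PL1 libraries numbered 1174 with a pseudocount of 1, 2501 with 0.1 and 617 with 5. The cause of these shifts was not tested.

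Of 169 called genes that the naming rule took, 60 passed in all 13 alternatives that gave them a value, among them Trp63, Sox2, Krt5, Egfr, Snai2, Wnt7a and Msln, and 14 of the 24 largest changes did so; no called gene changed direction. Genes that were not called turned in places. On log2(TPM + 0.5) the difference was 0.76 for Vim, 2.21 for Ltf and 0.17 for Pax9. With 1 library left out it ran from -1.93 to 4.60 for Vim, -8.69 to 0.12 for Col1a1, -10.98 to 2.82 for Pdgfrb, -7.06 to 1.75 for Dcn, -1.77 to 5.95 for Ltf, -1.02 to 1.65 for Pax9 and -3.77 to 1.90 for Olfm4, highest in each case without PL1 replicate 2. It ran from -0.21 to 0.083 for Cdh1, highest without PL1 replicate 1. The list medians against a single PL1 library were added after the data had been seen. With 2 libraries a line, 1 line on each side and no known cultures behind the libraries, no difference can be assigned to more than these lines.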

Other observations

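The genes of the Y chromosome stood apart between the lines. Of 12 tested, 8 were called lower in PL12 (66.7%, beside 12.5% of all genes). Kdm5d, a histone demethylase gene chosen here after its values were seen, read 49.4 and 46.4 CPM in PL1 and 2.19 and 1.72 CPM in PL12. Eif2s3y, a translation factor subunit, read 63.6 and 65.2 CPM against 3.42 and 2.99 CPM. Uty and Ddx3y, chosen in the same way, were 22.6-fold and 18.6-fold lower by mean CPM, so the 4 genes were lower by factors of 18.6 to 24.5 and were still above 1 CPM in each PL12 library. All 4 were called (adjusted p from 0.000483 to 0.00108, edgeR).

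Prl2a1 was not alone in its family. Prl2c2 and Prl2c3, placental members on the same chromosome 13 whose near-identical copies can share reads, were also called, with 28.6 and 5.76 CPM in PL1 and 602 and 641 CPM in PL12 for Prl2c2, and 5.65 and 2.48 CPM against 214 and 232 CPM for Prl2c3. Both were chosen after their values were seen.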
